A study of Mus musculus with 6 samples.

Results

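The genes described here are the enzymes that build cholesterol from acetyl-CoA and the proteins that control them through the transcription factor SREBP2, in mouse macrophages that lack the receptor SIRPa. They were chosen by gene symbol, as 28 symbols on a written list, and all 28 were found among the 54232 genes of the table. Of these 28 genes, 20 encode enzymes of the route, 6 encode SREBP2 and the proteins that retain, escort or cut it, and 2 encode proteins that handle finished cholesterol. All 28 also had enough reads to be tested. The cells were bone marrow derived macrophages, obtained by growing marrow in colony-stimulating factor 1, and their poly(A) RNA was sequenced. The SIRPa knockout (KO) group had 3 libraries and the wild-type (WT) group had 3. Marrow of both groups came from C57BL/6 mice aged 8 weeks, both sets were cultured for 7 days with 30% medium conditioned by L929 cells as the source of that factor, and neither was treated. The sources used here do not give the way Sirpa was disrupted, nor whether the libraries of a group stem from separate mice, so the spread that p-values measure here may be technical.

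As background, cholesterol is made in the endoplasmic reticulum and cytosol from acetyl-CoA through mevalonate, isoprenoid diphosphates, squalene and lanosterol. SREBP2 is made as an inactive membrane precursor. When membrane sterol is low, the escort protein SCAP carries it to the Golgi, where a pair of proteases release the part that enters the nucleus and switches on the enzymes of the route. When sterol is plentiful, INSIG proteins hold SCAP and SREBP2 back. Macrophages take in much cholesterol with the cells and lipoproteins they engulf, and they store the surplus as esters or pass it out of the cell, so transcripts of this route are commonly read as a gauge of how replete the cell is.

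Libraries held 28653015 to 31401080 assigned reads in KO and 34102444 to 67446846 in WT, with WT replicate 3 the deepest. Sirpa, the targeted gene, had 2102, 2112 and 2010.4 normalized counts in KO replicates 1, 2 and 3, against 110498, 114095 and 94737 in WT replicates 1, 2 and 3, a log2 fold change of -5.68, so each library matched its label. The 10 macrophage markers examined were all tested, and their summed normalized count was 927456 to 1068864 in KO and 1051351 to 1236256 in WT, most of it Lyz2. Of these 10 markers, 4 had lower means in KO, and their median log2 fold change was 0.006. Among markers of other cells, the neutrophil list summed to 437 to 606 in KO and 378 to 754 in WT, with Ly6g at 0. The fibroblast list summed to 14.5 to 21.8 in KO and 16.1 to 21.7 in WT, with Lum at 0. The B cell list summed to 4963 to 5827 in KO and 6192 to 6718 in WT, most of it Ighm. The T and NK cell list summed to 189 to 203 in KO and 111 to 205 in WT, most of it Cd4, with Ncr1 at 0. The part of these other markers in the results that follow was not tested.

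No gene of cholesterol synthesis or its control passed the test between KO and WT macrophages. With limma on log2(normalized count + 1), 0 of the 28 genes were called higher and 0 lower when p-values were adjusted over all genes with a threshold of 0.05. The lowest adjusted p among the 28 was 0.9998. With array weights, a fit that did not converge, 5 of the 28 and 3498 genes in all were called. Over all 13527 genes tested, 1 gene was called, Sirpa itself, which is 0.00739% of the genes. At an unadjusted p under 0.05, 1 of the 28 genes was lower in KO, Insig1, and 0 were higher, where 0.828% of all genes were lower and 0.688% higher. For 5 genes (17.9% of the 28) every KO value lay below every WT value, where 2.71% of all genes were apart in that direction. These were Acat2, Fdft1, Msmo1, Nsdhl and Insig1. No gene of the 28 was apart and higher in KO, where 1.96% of all genes were. In bulk RNA, fewer cells of a type and less RNA per cell cannot be told apart.

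Most of the differences were small and pointed the same way. Of the 28 genes, 24 had a lower fitted mean in KO (85.7%), against 51.8% of all genes tested, and the median log2 fold change (KO minus WT) was -0.14, against -0.0062 over all genes. Because the genes of one route can vary together from library to library, these 28 values are not independent, and no test was made over them. For the enzymes alone the median was -0.16, with 19 of 20 below WT. For the control and handling genes it was -0.012, with 5 of 8 below WT, and its sign turned with single libraries. It was 0.037 without KO replicate 3 (3 of 8 below WT) and 0.047 without WT replicate 2 (2 of 8). It was -0.071 without KO replicate 1 (6 of 8), -0.045 without KO replicate 2 (4 of 8), -0.050 without WT replicate 1 (6 of 8) and -0.050 without WT replicate 3 (7 of 8). Without KO replicate 3 the median of the 28 was -0.052, with 19 below WT, while that of the enzymes was -0.16, with 16 of 20 below WT. Each of the 28 genes had between 175 and 22398 reads in every library. For 27 of the 28 genes the 95% interval excluded differences beyond 1.5-fold either way, Mvd being the exception, and for all 28 it excluded those beyond 2-fold.

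**Figure D1:**
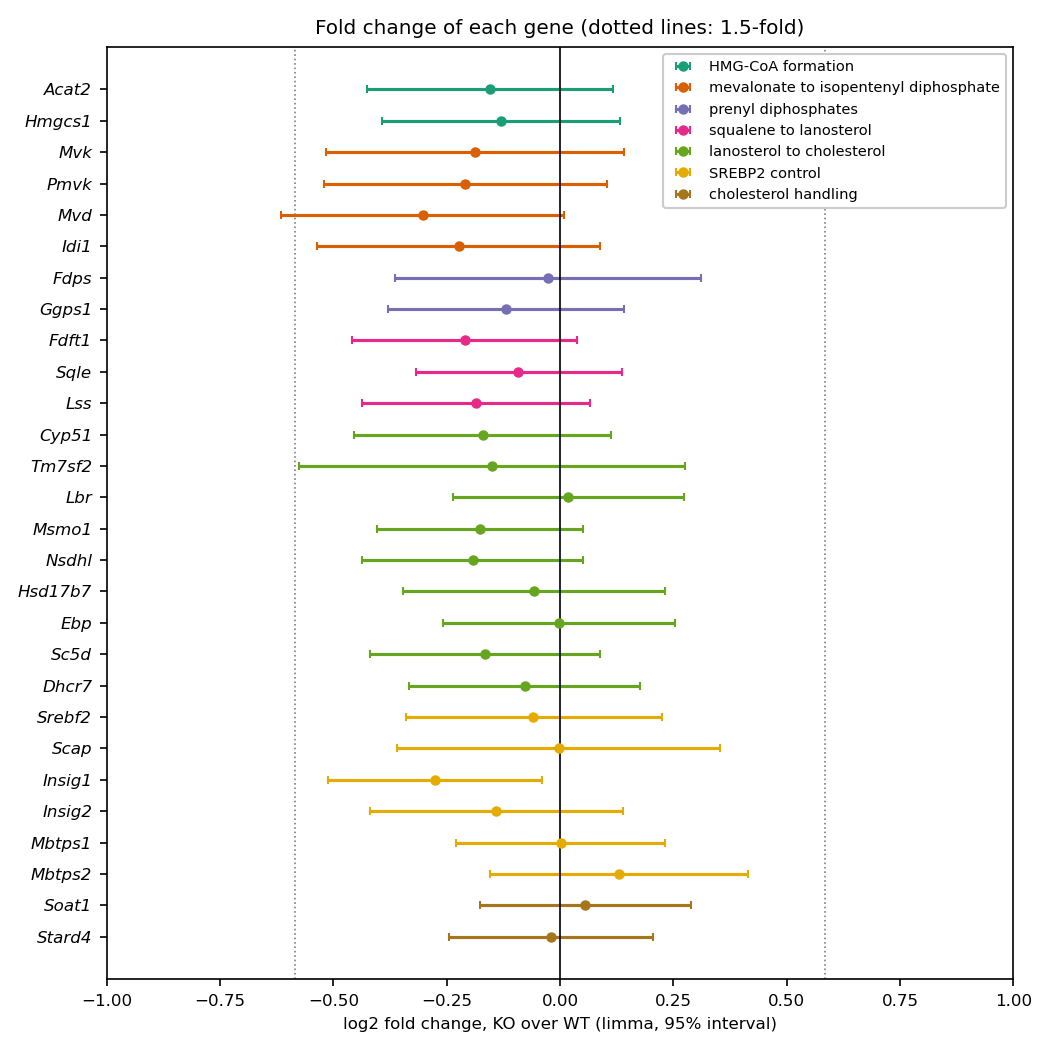
Log2 fold change (KO minus WT, horizontal axis) of each of the 28 genes, in the order of the route from top to bottom, with bars for the 95% interval from limma. Values run from -0.30 for Mvd to 0.13 for Mbtps2, 24 of them lie below 0, and 27 intervals lie within 1.5-fold.

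The stretch of DNA before each gene's start is where SREBP2 and its partners bind, and it is shown for 4 genes the results turn on. Insig1 and Nsdhl are shown as examples of the 5 genes whose groups did not overlap, Mvd because its fold change was the lowest with all libraries, and Hmgcs1 because it alone, of the 24 genes with a window, held the sterol regulatory element searched for. The windows come from RefSeq on GRCm38.p6, run 5′ to 3′ on the gene's strand, and end before the first annotated exon. They lie at chr5:28071162-28071362, plus strand, for Insig1, at chr8:122443423-122443672, minus strand, for Mvd, at chr13:119690101-119690350, plus strand, for Hmgcs1, and at chrX:72918271-72918520, plus strand, for Nsdhl. Capitals mark CCAAT, the letters bound by NF-Y, or ATTGG, the same letters on the other strand, and in Hmgcs1 also TCACCCCAC, the sterol regulatory element.
Insig1: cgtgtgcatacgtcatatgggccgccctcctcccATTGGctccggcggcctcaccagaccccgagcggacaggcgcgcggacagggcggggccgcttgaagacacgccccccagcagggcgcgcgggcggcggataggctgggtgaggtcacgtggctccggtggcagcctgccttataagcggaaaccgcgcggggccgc
Mvd: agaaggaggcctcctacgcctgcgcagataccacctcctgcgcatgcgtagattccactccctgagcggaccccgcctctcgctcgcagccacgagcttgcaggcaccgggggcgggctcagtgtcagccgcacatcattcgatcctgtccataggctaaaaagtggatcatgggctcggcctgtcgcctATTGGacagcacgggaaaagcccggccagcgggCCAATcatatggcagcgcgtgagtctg
Hmgcs1: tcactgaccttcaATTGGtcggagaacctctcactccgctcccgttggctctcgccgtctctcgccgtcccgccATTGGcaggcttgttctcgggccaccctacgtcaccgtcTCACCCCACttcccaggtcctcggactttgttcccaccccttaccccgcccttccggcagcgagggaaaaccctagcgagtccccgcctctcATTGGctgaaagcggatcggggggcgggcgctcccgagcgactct
Nsdhl: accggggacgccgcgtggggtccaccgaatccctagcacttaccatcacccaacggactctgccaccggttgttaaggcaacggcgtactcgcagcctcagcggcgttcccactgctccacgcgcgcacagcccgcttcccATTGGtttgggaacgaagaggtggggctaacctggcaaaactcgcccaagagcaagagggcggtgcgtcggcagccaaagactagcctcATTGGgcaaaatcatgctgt

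Hmgcs1 carries the element between CCAAT boxes, with its first base 137 bases before the RefSeq start, and has 3 such boxes in the printed stretch. Mvd and Nsdhl have 2 each and Insig1 has 1, and the printed stretch of these 3 genes holds no match to the element as searched. Over the window from 250 bases before to 50 after the start, 24 of the 28 genes had a sequence, as did 27025 genes in all and 9656 of those tested. The element, searched as TCACNCCAC on both strands, was found in 1 of the 24 (4.17%), against 1.44% of all windows and 1.36% of tested genes. CCAAT was found in 20 (83.3%), against 41.1% of all and 43.2% of tested genes. CCGCCC, bound by Sp1, was found in 21 (87.5%), against 38.2% and 68.2%. CACGTG, an E box, was found in 5 (20.8%), against 8.09% and 12.1%. A match is only a run of letters, and known elements that depart from these letters are not counted.

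The route opens with acetoacetyl-CoA and HMG-CoA, and both enzymes measured there had lower means in KO, with a median log2 fold change of -0.14, or -0.074 without WT replicate 3. Normalized counts here and below are given for replicates 1, 2 and 3 of each group, in that order. Acat2, the cytosolic thiolase that joins acetyl-CoA units, had 560.5, 579.6 and 559 in KO libraries, against 584, 613 and 699.9 in WT libraries. The groups did not overlap, and the log2 fold change was -0.15 (SE 0.12, 95% interval -0.43 to 0.12). Reads of Acat2 are uncertain, because a 97.7% identical stretch of 1477 bases is shared with Acat3. A 98.7% identical stretch of 445 bases is shared with Tcp1. Hmgcs1 (ENSMUSG00000093930, GRCm38 chromosome 13 from 119690379 to 119708260), the synthase that forms HMG-CoA, had 5397, 4680.0 and 5935 in KO libraries, against 5768, 5376 and 6345 in WT libraries. Its groups overlapped, with KO replicate 2 the lowest library and WT replicate 3 the highest, and the log2 fold change was -0.13 (SE 0.12, 95% interval -0.39 to 0.13).

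From mevalonate to isopentenyl diphosphate, all 4 enzymes had lower means in KO, with a median log2 fold change of -0.22, the lowest of the 7 steps with all libraries. Without KO replicate 3 it was -0.18, against -0.20 from squalene to lanosterol. Mvk and Pmvk add the phosphate groups. Mvk had 424, 459 and 332 in KO libraries, against 454, 461 and 456 in WT libraries, so that KO replicate 3 stood apart below the other 5 libraries. Pmvk had 833, 872 and 785 in KO libraries, against 858, 876 and 1171 in WT libraries, and here WT replicate 3 stood above the rest. Mvd (ENSMUSG00000006517, GRCm38 chromosome 8 from 122433601 to 122443422), which decarboxylates the product to isopentenyl diphosphate, had the lowest fold change of the 28 genes with all libraries. Its normalized counts were 814, 934 and 708 in KO libraries, against 898, 992 and 1134 in WT libraries, or 818 ± 113 in KO and 1008 ± 119 in WT (SD, n = 3 each). The log2 fold change was -0.30 (SE 0.14, 95% interval -0.61 to 0.008), and the groups overlapped, since KO replicate 2 exceeded WT replicate 1. Without KO replicate 3 it was -0.20 and without WT replicate 3 it was -0.21, and in both cases Insig1 was lower, at -0.29 and -0.30. Without KO replicate 1, Idi1 was lowest at -0.31. Idi1, the isomerase that makes the partner substrate, had 509, 411 and 433 in KO libraries, against 465, 547 and 568 in WT libraries. KO replicate 1 lay within the WT range, and the log2 fold change was -0.22 (SE 0.14, 95% interval -0.54 to 0.089). Part of Idi1 is shared at 100% identity over 684 bases with the pseudogene Gm13502, so its reads too are uncertain.

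With all libraries the isoprenoid branch point differed less than the other enzyme steps, at a median log2 fold change of -0.073. Without WT replicate 3 that median was -0.14, and only the step from mevalonate to isopentenyl diphosphate was lower, at -0.18. Fdps makes farnesyl diphosphate, from which squalene, dolichol and the farnesyl groups of proteins all derive. Its normalized counts were 482, 530.3 and 519.5 in KO libraries, against 582, 576 and 418 in WT libraries, with WT replicate 3 the lowest library of the 6. The log2 fold change was -0.027 (SE 0.15, 95% interval -0.36 to 0.31), but 0.014 when KO replicate 1 was left out, 0.055 without WT replicate 1, and 0.047 when WT replicate 2 was left out. Without WT replicate 3 it was -0.18. Fdps has 5 processed pseudogenes that can share its reads. Ggps1, which extends farnesyl diphosphate for the prenylation of Rab and other small GTPases, had 977, 901 and 1106 in KO libraries, against 1041, 1089.6 and 1102 in WT libraries. KO replicate 3 lay above every WT library, and the log2 fold change was -0.12 (SE 0.12, 95% interval -0.38 to 0.14).

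The 3 enzymes that commit carbon to sterols all had lower means in KO, with a median log2 fold change of -0.19, or -0.11 without WT replicate 2. Fdft1, squalene synthase, had 1688, 1782 and 1808 in KO libraries, against 1974, 1868 and 2283 in WT libraries. All 3 KO libraries lay below all 3 WT libraries, and the log2 fold change was -0.21 (SE 0.11, 95% interval -0.46 to 0.038). Fdft1 overlaps the highly expressed Ctsb on the opposite strand over 774 bases, 18.3% of its exonic length, and the strand setting of the counting is not given, so part of its count may be Ctsb reads. Sqle, the epoxidase that adds oxygen to squalene, had 4592, 4324 and 3873 in KO libraries, against 4497, 4581 and 4519 in WT libraries. KO replicate 1 was the highest of the 6 libraries and KO replicate 3 the lowest, with a log2 fold change of -0.092 (SE 0.10, 95% interval -0.32 to 0.14). Lss, which folds the epoxide into lanosterol, had 1598, 1514 and 1585 in KO libraries, against 1597, 1982 and 1782 in WT libraries. WT replicate 1 fell within the KO range, and the log2 fold change was -0.19 (SE 0.11, 95% interval -0.44 to 0.065).

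Between lanosterol and cholesterol, 8 of 9 enzymes had lower means in KO, with a median log2 fold change of -0.15, which moved to -0.019 without KO replicate 3 and to -0.081 without WT replicate 3. Cyp51, the demethylase that opens this stretch, had 5980.2, 5631 and 7151 in KO libraries, against 6937, 6242 and 7924 in WT libraries. Its groups overlapped, since KO replicate 3 exceeded WT replicates 1 and 2, and the log2 fold change was -0.17 (SE 0.13, 95% interval -0.45 to 0.11). Tm7sf2 and Lbr encode alternative reductases for the next step, and LBR is also a receptor for lamin B in the nuclear envelope. Tm7sf2 had 276, 352 and 211 in KO libraries, against 275, 303 and 337 in WT libraries, with KO replicate 2 the highest library and KO replicate 3 the lowest. Its log2 fold change was -0.15 (SE 0.19, 95% interval -0.58 to 0.28), but 0.037 without KO replicate 3. Lbr had 1918, 1832 and 1924 in KO libraries, against 1700.2, 1793 and 2134 in WT libraries, a log2 fold change of 0.018 that was -0.049 without WT replicate 1 and -0.011 without WT replicate 2.

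Next on the route, MSMO1, NSDHL and HSD17B7 act in turn to strip methyl groups from the sterol ring. Msmo1 had 7076, 6586 and 6245 in KO libraries, against 7326, 7165 and 8001 in WT libraries. Nsdhl (ENSMUSG00000031349, GRCm38 chromosome X from 72918557 to 72958514) had 1631, 1549.7 and 1625 in KO libraries, against 1695, 1781 and 2034 in WT libraries. For both genes all 3 KO libraries lay below all 3 WT libraries, with log2 fold changes of -0.18 (SE 0.10, 95% interval -0.40 to 0.050) for Msmo1 and -0.19 (SE 0.11, 95% interval -0.44 to 0.050) for Nsdhl. Hsd17b7 had 1127, 1037 and 905 in KO libraries, against 1008, 1202 and 985 in WT libraries, with a log2 fold change of -0.058 that moved to 0.027 without KO replicate 3 and to 0.032 without WT replicate 2. The 3 genes thus did not share one pattern over the libraries.

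The closing enzymes move and remove double bonds of the ring. Ebp, the isomerase, had 1937, 2014 and 1646 in KO libraries, against 1802, 1792 and 1999 in WT libraries. Its log2 fold change was -0.003 (SE 0.12, 95% interval -0.26 to 0.25), but 0.085 without KO replicate 3 and 0.049 without WT replicate 3. Sc5d, the desaturase, had 3332, 3023 and 3413 in KO libraries, against 3403, 3426 and 4157 in WT libraries, and only KO replicate 3 lay within the WT range, just above WT replicate 1. Its log2 fold change was -0.17 (SE 0.12, 95% interval -0.42 to 0.089). Dhcr7, which reduces 7-dehydrocholesterol to cholesterol, had 1648, 1783 and 1515 in KO libraries, against 1773, 1869.5 and 1581 in WT libraries. The groups overlapped, with KO replicate 3 the lowest and WT replicate 2 the highest, and the log2 fold change was -0.078 (SE 0.12, 95% interval -0.33 to 0.18).

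**Figure D2:**
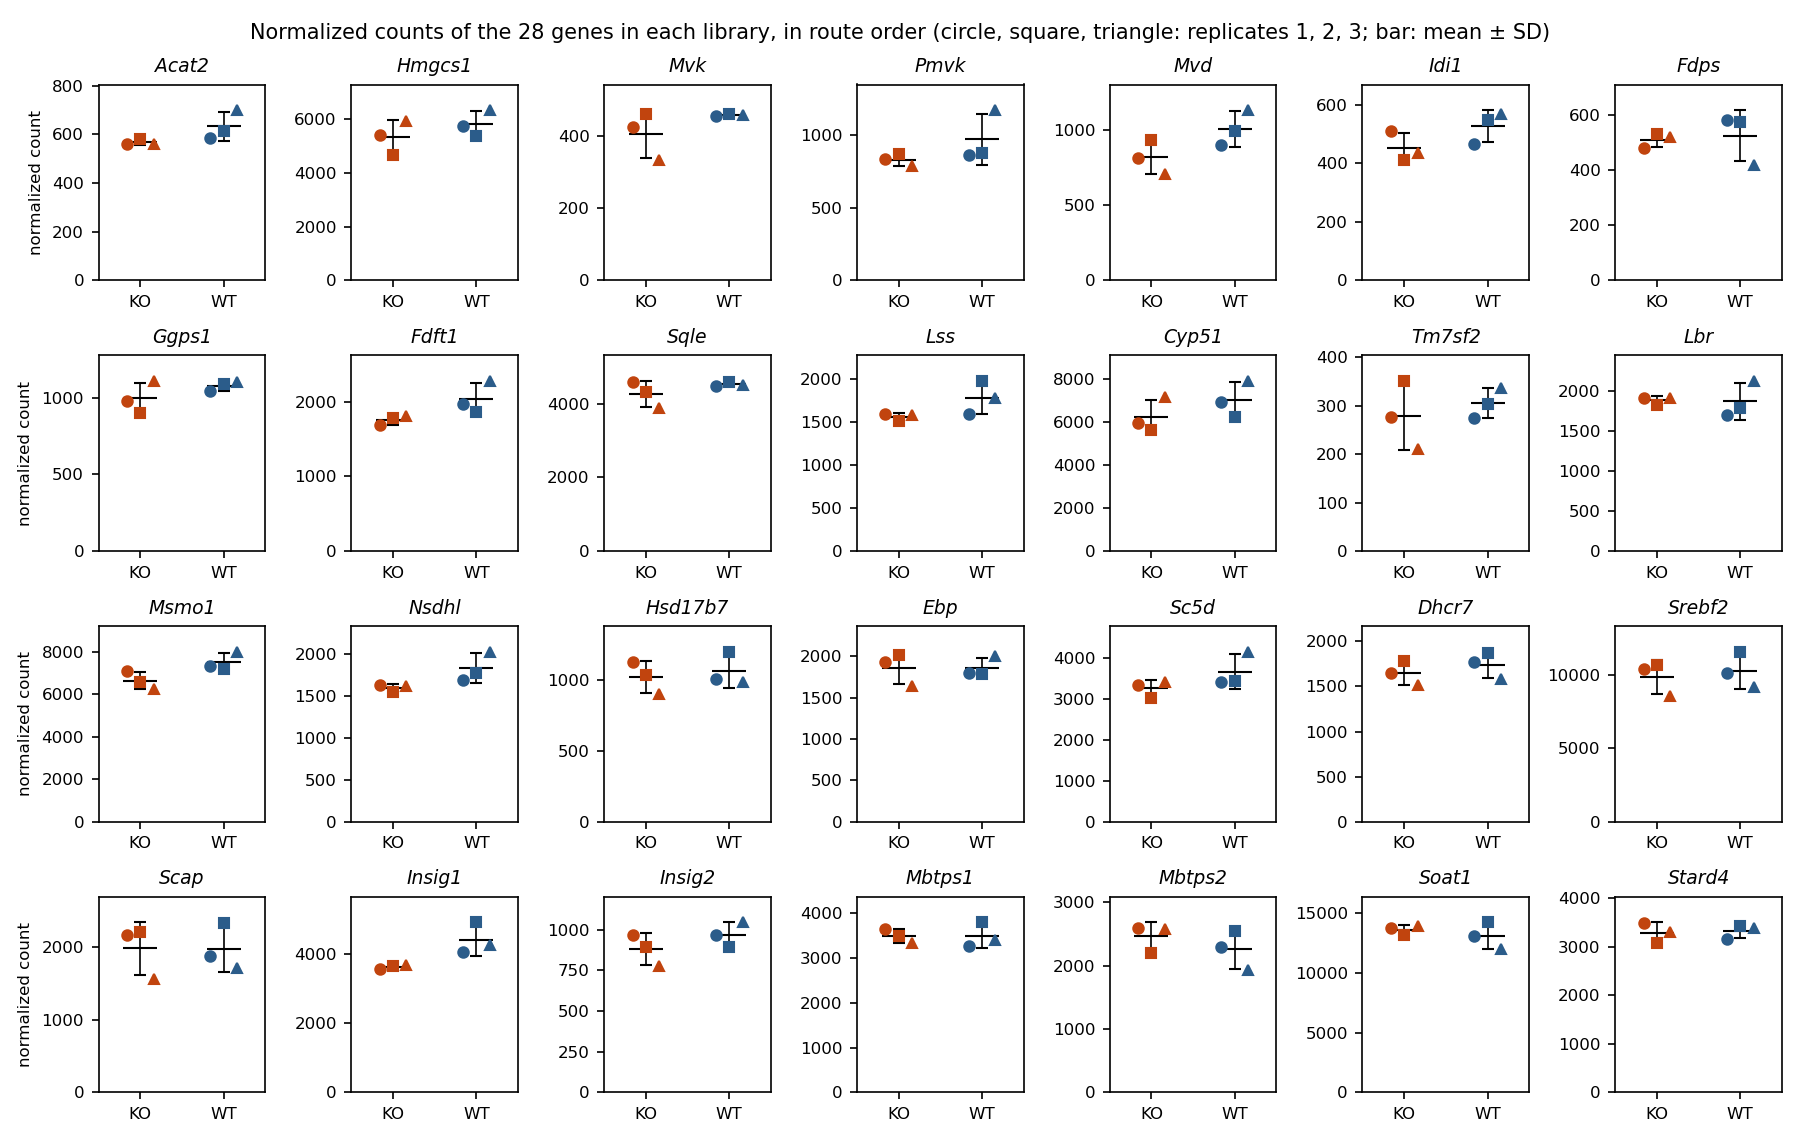
Normalized count (vertical axis, from 0) of each of the 28 genes in the 3 KO libraries (left) and the 3 WT libraries (right) of its panel, with replicate numbers marked by symbol and the mean ± SD by bars. The groups are apart for Acat2, Fdft1, Msmo1, Nsdhl and Insig1, each lower in KO, and overlap for the other 23.

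Among the genes that control SREBP2, Insig1 differed most with all libraries. INSIG1 holds SCAP in the endoplasmic reticulum, and its gene is itself a target of SREBP2, so that its transcript follows the activity of the pathway. Insig1 (ENSMUSG00000045294, GRCm38 chromosome 5 from 28071363 to 28078662) had 3564, 3656 and 3688 in KO libraries, against 4057, 4926 and 4266 in WT libraries, or 3636 ± 64.3 in KO and 4416 ± 454 in WT (SD, n = 3 each). All 3 KO libraries lay below all 3 WT libraries, and the KO values varied less among themselves than the WT values. The log2 fold change was -0.28 (SE 0.11, 95% interval -0.51 to -0.039), with an unadjusted limma p of 0.026 and an adjusted p of 0.9998. Insig2, whose product does the same work but whose gene is not known to depend on SREBP2 in this way, had 971, 897 and 779 in KO libraries, against 969, 896 and 1046 in WT libraries. KO replicate 2 and WT replicate 2 were nearly equal, and the log2 fold change was -0.14 (SE 0.13, 95% interval -0.42 to 0.14).

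Srebf2, Scap and Mbtps1 had fold changes between -0.059 and 0.001, and Mbtps2 had a higher mean in KO. Srebf2 had 10369, 10653 and 8532 in KO libraries, against 10081, 11568 and 9132 in WT libraries. KO replicate 3 was the lowest library and WT replicate 2 the highest. The log2 fold change was -0.059 (SE 0.13, 95% interval -0.34 to 0.22), but 0.042 without KO replicate 3 and 0.031 without WT replicate 2. Scap had 2157, 2206 and 1561 in KO libraries, against 1874, 2329.8 and 1712 in WT libraries, a log2 fold change of -0.003 (SE 0.16, 95% interval -0.36 to 0.35) that moved to 0.16 without KO replicate 3 and to 0.12 without WT replicate 2. Mbtps1 encodes the site-1 protease and Mbtps2 the site-2 protease. Reads of Mbtps2 are uncertain, because 2867 bases, 28.4% of its exonic length, are shared with Yy2 on the same strand. Yy2 itself had a mean normalized count of 0. Mbtps1 had 3652, 3478 and 3336 in KO libraries, against 3273, 3793 and 3407 in WT libraries, a log2 fold change of 0.001 (95% interval -0.23 to 0.23) that was -0.033 when KO replicate 1 was left out, -0.044 without WT replicate 1, and -0.015 when WT replicate 3 was left out. Mbtps2 had 2599.7, 2208 and 2586 in KO libraries, against 2294, 2556 and 1934 in WT libraries, and its log2 fold change of 0.13 (SE 0.13, 95% interval -0.15 to 0.41) was the highest of the 28 genes with all libraries. It was 0.021 without WT replicate 3, when Lbr was highest at 0.12, and 0.093 without KO replicate 3, when Scap was highest. Each of these intervals includes 0, which does not show that the levels are equal.

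The genes that handle finished cholesterol had fold changes near 0 as well. Soat1, which esterifies cholesterol for storage in lipid droplets, had 13717, 13184 and 13872 in KO libraries, against 13099, 14221 and 11986 in WT libraries. Its log2 fold change was 0.056 (SE 0.10, 95% interval -0.18 to 0.29), but -0.006 without WT replicate 3. Stard4, a soluble carrier that moves sterol between membranes, had 3502, 3069.6 and 3300.1 in KO libraries, against 3171, 3433 and 3397 in WT libraries. The groups overlapped, and the log2 fold change was -0.020 (SE 0.10, 95% interval -0.24 to 0.20), but 0.029 without KO replicate 2 and 0.002 without WT replicate 2.

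The profile over single libraries was uneven. Each gene was expressed as the deviation of each library from that gene's mean over the 6 libraries, on the log2 scale. The median deviation of the 28 genes was -0.026, -0.039 and -0.11 in KO replicates 1 to 3, against -0.016, 0.074 and 0.099 in the WT replicates. KO replicate 3 and WT replicate 3 were thus farthest apart, while KO replicates 1 and 2 and WT replicate 1 were close to each other. KO replicate 3 was the lowest library for 13 of the 28 genes (46.4%), against 27.2% of all genes tested. KO replicate 2 was the lowest for 8 (28.6%), against 13.1% of all genes. WT replicate 3 was the highest for 12 (42.9%), against 26.2% of all genes, and WT replicate 2 for 9 (32.1%), against 17.3% of all genes. Without KO replicate 3 and WT replicate 3, a setting chosen after the data had been seen, the median log2 fold change of the 28 genes was -0.061, with 22 below WT, and that of the enzymes was -0.096, with 17 of 20 below WT.

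Enzymes and controllers are given apart. The median deviation of the 20 enzymes was -0.054, -0.040 and -0.13 in KO replicates 1 to 3, against -0.012, 0.059 and 0.19 in the WT replicates. For the 8 control and handling genes it was 0.070, -0.028 and -0.090 in KO, and -0.030, 0.12 and -0.082 in WT. WT replicate 3 was therefore the highest library for the enzymes but low for the controllers, and KO replicate 3 was low for both. Other gene groups also set these libraries apart. The median deviation of 20 cell cycle genes was 0.15, -0.031 and -0.026 in KO and -0.24, -0.22 and 0.495 in WT. That of 16 immediate early genes was -0.093, 0.44 and -0.86 in KO and 0.496, 0.497 and -0.55 in WT, so replicate 3 of either group was low. All 16 immediate early genes had lower means in KO, with a median log2 fold change of -0.33 and 0 called, while 8 of the 20 cell cycle genes did, with a median of 0.027 and 0 called. By smallest p-value, the first cell cycle genes were Mcm4, Mcm2, Mcm3 and Mcm7, at log2 fold changes of 0.26, 0.26, 0.20 and 0.19. The first immediate early genes were Klf4, Ier2, Egr1 and Jun, at -0.34, -0.36, -0.37 and -0.16. The part of these gene groups, and of the greater depth of WT replicate 3, in the profile of the cholesterol genes was not tested.

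**Figure D3:**
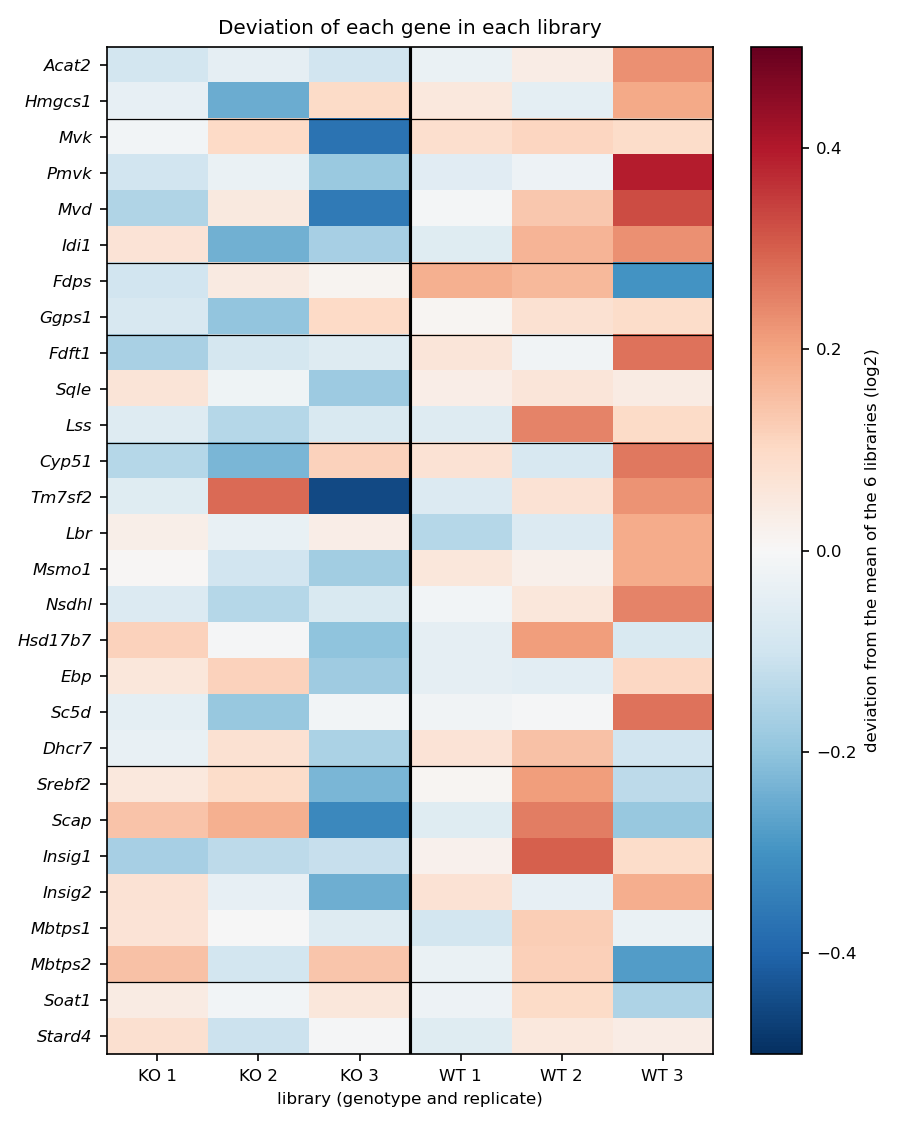
Deviation of each library from the gene's mean over the 6 libraries (log2, colour) for the 20 enzymes and the 8 control and handling genes. Genes are rows in the order of the route, and libraries are columns, with KO replicates to the left of WT replicates. The median over the enzymes was lowest in KO replicate 3 (-0.13) and highest in WT replicate 3 (0.19).

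Levels of different genes were compared per kilobase of exonic length, as the mean normalized count over the 6 libraries. This length joins the exons of every annotated transcript of a gene, which need not be the transcripts these cells make, so the ranks are approximate. The most abundant transcripts were Cyp51 at 1504.9 per kilobase, Srebf2 at 1399.8, Soat1 at 1363, Insig1 at 1302, Hmgcs1 at 1215 and Msmo1 at 1150.1. These 6 genes took ranks 1 to 6 among the 28 in every library, but their order among themselves changed between libraries, Cyp51 ranging from rank 1 to rank 4 and Hmgcs1 from 2 to 6. Cyp51 stood above 91.8% of the 13514 genes with a known length. Tm7sf2 was the lowest of the 28 in every library, at 66.4 per kilobase, above 31.7% of genes. It shares 532 bases, 12.1% of its exonic length, with Vps51 on the same strand, so its reads are uncertain. In all, 23 of the 28 genes stood above the median gene in every library. Near the foot of the order were also Idi1 at 139 and Fdps at 123 per kilobase. Fdps shares 1124 bases, 26.7% of its exonic length, with Gm43738 on the same strand, so its level is uncertain too. Gm43738 itself had a mean normalized count of 0.

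Where the route offers alternative enzymes or paralogs, one of them prevailed in both groups. Lbr exceeded Tm7sf2 per kilobase by 6.42, 4.82 and 8.43-fold in KO and by 5.72, 5.47 and 5.85-fold in WT. Insig1 exceeded Insig2 by 4.12, 4.58 and 5.32-fold in KO and by 4.70, 6.17 and 4.58-fold in WT. Both ratios overlapped between the groups. Soat2, the enteric and hepatic esterification enzyme, had 4.81 ± 3.25 normalized counts in KO and 7.22 ± 2.49 in WT (SD, n = 3 each), far below Soat1. Soat2 was singled out after its values were seen.

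**Figure D4:**
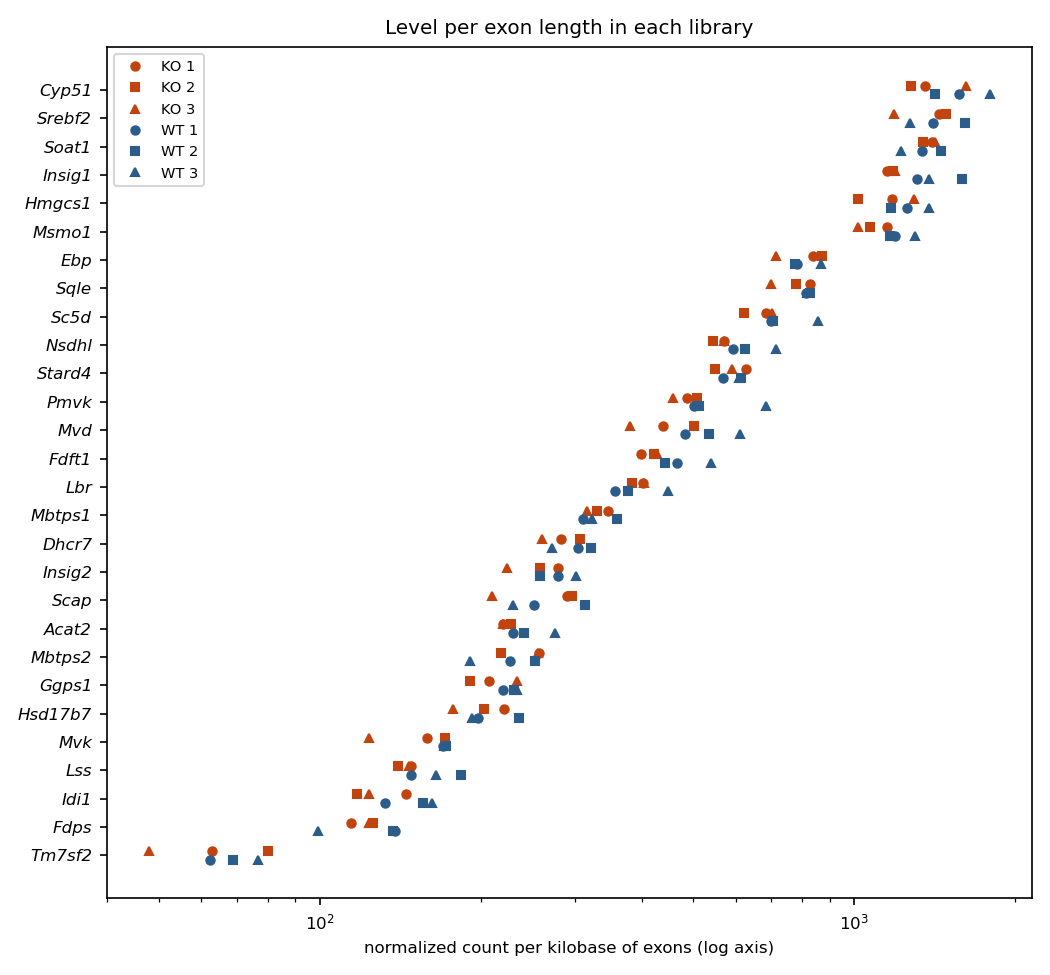
Normalized count per kilobase of exonic length (log axis) of each of the 28 genes, with points for single libraries and genes ordered by their mean. Cyp51 leads at 1504.9 and Tm7sf2 is lowest at 66.4, and KO and WT points overlap or lie close to each other for every gene.

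Genes around the route were examined from lists of related function, and 0 genes of any such list were called. Of 17 genes for acetyl-CoA supply and other uses of isoprenoids, 15 were tested, with 11 below WT and a median log2 fold change of -0.054. Acss2, which makes acetyl-CoA from acetate, had 218, 214 and 213 in KO libraries, against 302, 304 and 399.7 in WT libraries. Its groups did not overlap, and the log2 fold change was -0.62 (SE 0.16, 95% interval -0.97 to -0.28), with an unadjusted limma p of 0.0023 and an adjusted p of 0.9998. Coq2 (ubiquinone synthesis) and Fntb (protein farnesylation) had log2 fold changes of -0.20 and -0.16, and Fntb stood at 0.008 without KO replicate 3. Idi2, an isomerase paralog singled out after its values were seen, was at 0 in every library.

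Of 22 genes for the sterol-dependent degradation machinery and partners of SREBP2, 21 were tested, with 9 below WT and a median of 0.004. The genes with the smallest p-values there were Pgrmc1, Ep300, Vcp and Crebbp, at log2 fold changes of -0.15, 0.18, 0.11 and 0.14. Ep300 and Crebbp encode coactivators and Vcp an ATPase that extracts proteins for degradation. Crebbp stood at -0.010 without WT replicate 3. Of 10 genes for electron supply and accessory proteins of the sterol enzymes, 8 were tested, with 5 below WT and a median of -0.062. Erg28, a scaffold of the demethylation enzymes, had a log2 fold change of -0.23. Cyb5a, an electron donor, had -0.23, and Por, the reductase that serves CYP51 and SQLE, had 0.14.

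Downstream of synthesis, 17 of 18 genes for cholesterol esters and movement between membranes were tested, with 10 below WT and a median of -0.047. Stard5, a sterol-binding carrier, had 757, 778 and 611 in KO libraries, against 801, 838 and 807 in WT libraries, and its groups did not overlap. The log2 fold change was -0.20 (SE 0.13, 95% interval -0.48 to 0.087). Npc2, which helps cholesterol leave the lysosome, and Stard3, a sterol-binding tether of late endosomes, had log2 fold changes of -0.20 and -0.18, and Gramd1b, which carries it from the plasma membrane to the endoplasmic reticulum, had 0.20. Of 4 oxysterol-forming enzymes 2 were tested, Cyp27a1 at -0.18 and Ch25h at 0.12. Ch25h stood at -0.020 without KO replicate 2 and -0.069 without WT replicate 2. LXR, the receptor activated by oxysterols, drives export genes. Of a list of 10 genes that holds LXR targets and the receptor genes Nr1h2 and Nr1h3, 9 were tested, with 8 below WT and a median of -0.12. Abcg1, a cholesterol exporter, had 2627, 3143 and 3023 in KO libraries, against 3294, 4442 and 3813 in WT libraries, a log2 fold change of -0.39 (SE 0.13, 95% interval -0.68 to -0.098). Scd1, a fatty acid desaturase driven by both LXR and SREBP1, had 106, 139.7 and 195 in KO libraries, against 194, 336 and 350.5 in WT libraries, a log2 fold change of -0.99 (SE 0.27, 95% interval -1.58 to -0.39). The groups did not overlap for Abcg1 but overlapped for Scd1. Pltp, a phospholipid transfer protein, and Nr1h3, which encodes LXR alpha, had log2 fold changes of -0.29 and -0.17.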

How the data were processed

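The 28 genes and the related lists were chosen with earlier results of these data known. Some genes of the route are not reported here. Groups came from sample titles. Per the submitters' processing notes, the authors used STAR 2.5.1b with featureCounts 1.6.0 for GRCm38, besides CASAVA 1.4 and DESeq2 1.22.2, while the design text names TopHat 2.0.10, FastQC 0.10.1 and a TruSeq stranded mRNA kit. Which aligner made the table is thus unclear. Since the annotation release and the strand setting of the counting were not given in the sources used here, counts of overlapping genes and near-identical copies are uncertain.

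The deposited library columns hold a signal, gene read counts divided by 1 size factor per library. All positive values were whole multiples of a step per library (100% within 0.001 reads), which gave whole reads. The authors' deposited log2 fold changes and p-values were not used for any statement. Entries without a gene name, 67 in all, held 0.003% of reads.

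Tests were two-sided and used R 4.3.3 and limma 3.58.1, with an intensity trend, on log2(normalized count + 1), a scale that understates changes of low genes. Genes needed at least 10 normalized counts in at least 3 libraries. P-values were adjusted by Benjamini-Hochberg over 13527 genes, with a threshold of 0.05. Named from each related list were up to 4 genes with the smallest unadjusted p. Lengths and coordinates came from GENCODE M21 on GRCm38, near copies from blastn 2.17.0, and sequences before gene starts from RefSeq on GRCm38.p6. Alternatives were other pseudocounts, filters and scalings, array weights, no trend, a block for the replicate number, edgeR 4.0.16 and DESeq2 1.42.0 on the whole reads, and leaving out libraries. The script was tested on simulated data.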

Additional observations from a re-analysis of the deposited data

How the results depend on the processing

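Sirpa was the 1 gene called in every setting run except array weights, and 0 of the 28 genes were called in any other setting. Array weights, whose fit did not converge, called 3498 genes and 5 of the 28 (Fdps, Fdft1, Cyp51 and Insig1 lower, Mbtps2 higher). With array weights the median log2 fold change was -0.041 over the 28 genes (17 below WT), -0.071 over the enzymes (15 of 20) and 0.089 over the control and handling genes (2 of 8). Leaving out each library in turn gave medians of -0.145 to -0.052 for the 28 genes and -0.193 to -0.107 for the enzymes, lowest and highest, with 19 to 25 of 28 genes below WT. Without KO replicate 3 and WT replicate 3 the medians were -0.061 and -0.096. At an unadjusted p under 0.05, edgeR found 207 genes and DESeq2 217, in each case with 1 of the 28 genes among them.

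Signs turned for 12 of the 28 genes. Leaving out each library gave a log2 fold change of -0.183 to 0.055 for Fdps, -0.331 to 0.037 for Tm7sf2, -0.049 to 0.115 for Lbr, -0.131 to 0.032 for Hsd17b7, -0.060 to 0.085 for Ebp and -0.139 to 0.042 for Srebf2. The range was -0.099 to 0.158 for Scap, -0.044 to 0.062 for Mbtps1, -0.006 to 0.117 for Soat1 and -0.066 to 0.029 for Stard4. Among related genes it was -0.266 to 0.008 for Fntb, -0.010 to 0.269 for Crebbp and -0.069 to 0.235 for Ch25h. Array weights gave 0.074 for Idi1, 0.014 for Sqle, 0.130 for Hsd17b7, 0.093 for Ebp, 0.031 for Srebf2, 0.179 for Scap, 0.116 for Stard4, 0.026 for Pgrmc1 and -0.029 for Ch25h. Ebp was 0.002 with TMM, 0.016 with median scaling, 0.005 with edgeR and 0.000 with DESeq2. Scap was 0.001 with TMM, 0.016 with median scaling, 0.009 with quantile scaling, 0.007 with edgeR and 0.003 with DESeq2. Mbtps1 was -0.004 with quantile scaling and -0.001 with DESeq2. The cause was not tested.

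With the replicate number as a block, 1 gene was called and 24 of the 28 genes were below WT with a median of -0.136. An unadjusted limma p under 0.05 was found for 327 genes with the block, against 205 in the main fit. Deviations of same-numbered KO and WT libraries correlated at r = 0.013, 0.313 and 0.133 across genes for replicates 1, 2 and 3. For differently numbered libraries r ran from -0.258 (KO replicate 3 with WT replicate 2) to 0.150 (KO replicate 3 with WT replicate 1). With so few libraries these values cannot decide whether the numbers pair the libraries. The labels do not state a pairing, and the main fit used none.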
